A study of Mus musculus with 6 samples.

Results

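The VEGF family is a set of secreted growth factors and the receptor tyrosine kinases that bind them, and its 8 mouse genes were followed here by name: the 3 receptors Kdr, Flt1 and Flt4 and the 5 ligands Vegfa, Vegfb, Vegfc, Vegfd and Pgf. They were found in the count table by gene identifier among 55471 genes, and all 8 were among the 13826 genes that passed the low-count filter. The family was chosen by measured values: earlier log2 fold changes of this same TCKO and WT comparison placed Kdr at the top of the rises. For that reason the differences of the 8 genes between the genotypes are given as a description with standard errors (SE) and without p-values. RNA was sequenced from primary osteoblasts, the bone-forming cells, taken from the skull cap of 3-day-old C57BL/6 mice and grown in culture for 3 days, with 3 libraries for each of 2 genotypes. TCKO cells came from mice carrying Prx1-Cre and the alleles Tet1fl/fl, Tet2fl/fl and Tet3fl/fl. WT cells are labelled only as wild type, and whether those mice carried Cre or floxed alleles is not given. Prx1-Cre drives recombination in mesenchyme of the limbs and skull, so cells of other origin in a culture keep intact Tet genes. The TET enzymes oxidise 5-methylcytosine in DNA, and the comparison asks which transcripts differ when all of them are targeted.

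VEGF ligands are best known for the growth of blood and lymphatic vessels. VEGF-A binds Flt1 (VEGFR1) and Kdr (VEGFR2), of which Kdr is the main signalling receptor of blood endothelium and Flt1 often acts as a decoy. VEGF-B and placental growth factor bind Flt1. VEGF-C and VEGF-D bind Flt4 (VEGFR3), the receptor of lymphatic endothelium, and VEGF-C after cleavage also binds Kdr. In bone, osteoblasts and hypertrophic chondrocytes secrete VEGF-A, which draws vessels into forming bone. The counts are per gene, so the secreted short form of Flt1 cannot be told from the full-length receptor, nor can the splice forms of Vegfa be separated.

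The libraries held between 8019999 and 10177214 counts (reads assigned to genes), and 3 counts, the number a true 0 can hide, corresponded to 0.295 to 0.374 CPM (counts scaled to a common library total). The transcripts of the targeted genes did not all fall: Tet1 was lower in TCKO (log2 fold change -0.97 ± 0.16 SE, adjusted p = 0.00648), Tet2 did not pass the test (-0.14 ± 0.14, adjusted p = 0.545) and Tet3 was higher (0.51 ± 0.09, adjusted p = 0.00745), all by edgeR's quasi-likelihood test with Benjamini-Hochberg adjustment. These counts cover every exon of a gene, and a loss of floxed exons alone is not resolved by them. Replicates 1 and 2 of each genotype lay close together, their chi-square over its degrees of freedom being 1.69 for WT and 2.04 for TCKO, against 16.5 to 23.3 for any pair with replicate 3. They differed by more than counting noise and were kept as separate samples. With replicates 1 and 2 added up within each genotype, Tet1 and Tet3 did not pass the threshold (adjusted p = 0.0797 and 0.0878). TCKO replicate 3 also had 4583 Xist counts and 0 Ddx3y counts where the other libraries had 1 to 4 and 675 to 1094, and replicate 3 of both genotypes had a higher share of mitochondrial counts, 2.22% and 2.47% against 1.11% to 1.24%. Nothing in the labels says that each library came from a separate animal or culture, so p-values measure the spread between these samples, which may be technical.

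The promoters of 4 members are shown, those of the pair of genes with the largest difference between genotypes, Kdr and Vegfc, of the Kdr paralogue Flt1, and of Vegfd, the ligand that was lower in TCKO. TET enzymes act on methylated CpG, and the capitals mark each CpG dinucleotide in the bases before the RefSeq transcription start (GRCm38.p6) that lie outside the gene span of the count table, written 5′ to 3′ on the strand of the gene. The Kdr piece is chr5:75978459-75978705 on the minus strand, the Flt1 piece chr5:147726012-147726261 on the minus strand, the Vegfc piece chr8:54077282-54077531 on the plus strand and the Vegfd piece chrX:164373272-164373377 on the plus strand.
Kdr: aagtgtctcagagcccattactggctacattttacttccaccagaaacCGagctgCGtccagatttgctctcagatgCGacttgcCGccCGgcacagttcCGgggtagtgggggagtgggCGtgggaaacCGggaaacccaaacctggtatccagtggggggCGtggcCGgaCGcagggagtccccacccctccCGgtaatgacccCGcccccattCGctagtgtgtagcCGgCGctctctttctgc
Flt1: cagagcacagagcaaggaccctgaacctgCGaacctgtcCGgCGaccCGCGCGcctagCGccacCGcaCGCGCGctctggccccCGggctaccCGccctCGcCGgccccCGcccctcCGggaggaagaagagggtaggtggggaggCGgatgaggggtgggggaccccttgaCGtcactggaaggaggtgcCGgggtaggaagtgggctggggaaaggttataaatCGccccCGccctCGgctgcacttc
Vegfc: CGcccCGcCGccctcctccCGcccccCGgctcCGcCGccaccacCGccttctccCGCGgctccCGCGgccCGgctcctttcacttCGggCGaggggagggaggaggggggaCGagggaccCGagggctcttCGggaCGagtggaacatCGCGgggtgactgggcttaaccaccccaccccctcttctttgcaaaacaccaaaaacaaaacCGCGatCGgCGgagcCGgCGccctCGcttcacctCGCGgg
Vegfd: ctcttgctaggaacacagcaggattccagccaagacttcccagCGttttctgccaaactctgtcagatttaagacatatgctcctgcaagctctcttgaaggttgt
The pieces hold 16 CpG in 247 bases for Kdr, 23 in 250 for Flt1, 30 in 250 for Vegfc and 1 in 106 for Vegfd.

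RefSeq promoters were listed for all 8 genes. In the whole window of 250 bases before the start, the CpG count was 16 for Kdr, 23 for Flt1, 16 for Flt4, 11 for the first listed start of Vegfa, 26 for Vegfb, 30 for Vegfc, 2 for Vegfd and 20 for the first listed start of Pgf. Over 27025 RefSeq promoters the median was 6, with quartiles of 2 and 16. Vegfc stood highest, with 94.4% of promoters holding fewer CpG, and Vegfd lowest, with 19.4% holding fewer. Letters were searched on both strands. GGGCGG, the core of the GC box, was found in the first listed window of every member but Vegfd, 2 to 4 times each, and in 32.9% of all promoters. TGTGGT, a RUNX core sequence, was found only in the Vegfd window among the members, and in 14.2% of all promoters. ACGTG, the core of the hypoxia response element, was in none of the first listed windows and in the second listed window of Vegfa, and in 16.6% of all promoters. A match is a string of letters in this window and says nothing of binding, and no methylation was measured in these libraries.

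Among the receptors, Kdr (ENSMUSG00000062960, chromosome 5, 75932827 to 75978458, minus strand) went from almost no reads to a clear signal. WT libraries held 3, 4 and 13 Kdr reads, whereas TCKO libraries held 293, 266 and 837. All TCKO libraries lay far above all WT libraries, and in both genotypes replicate 3 was the highest. Kdr passed the low-count filter only through its TCKO libraries. Its level averaged 0.779 ± 0.690 CPM over the WT libraries and 53.5 ± 35.0 over the TCKO libraries (SD, n = 3). The ratio of these means was 68.6, and the fitted log2 fold change was 6.12 ± 0.67 (SE). Without WT replicate 3, which holds most WT reads, the log2 fold change was 7.08, and without TCKO replicate 3 it was 5.44. Set against the WT library of the same number, the CPM ratio was 92.1 in replicate 1 (95% exact interval 31.2 to 449), 82.8 in replicate 2 (32.0 to 306) and 59.6 in replicate 3 (34.6 to 112). These intervals cover counting error only and overlap one another. The WT level of Kdr in RPKM (CPM per kilobase of exon) exceeded that of only 0.376% of the tested genes, while the TCKO level exceeded that of 51.4%.

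Flt1 (ENSMUSG00000029648, chromosome 5, 147561604 to 147726011, minus strand) was also higher in every TCKO library. WT libraries held 20, 20 and 38 Flt1 reads and TCKO libraries 101, 91 and 121, and here too replicate 3 was the highest of each genotype. The means were 3.01 ± 1.40 and 12.1 ± 1.25 CPM (SD, n = 3). The log2 fold change was 2.02 ± 0.29 (SE), or 2.46 without WT replicate 3. Flt4 (ENSMUSG00000020357, chromosome 11, 49609263 to 49652739, plus strand) held 61, 69 and 62 reads in the WT libraries and 148, 168 and 196 in the TCKO libraries. Its replicates were the tightest of the receptors in WT, and the genotypes did not overlap. The means were 7.26 ± 0.333 and 19.9 ± 2.68 CPM, and the log2 fold change was 1.46 ± 0.15. Within replicate numbers the ratio ran from 2.95 to 5.67 for Flt1 and from 2.29 to 3.03 for Flt4. Since the genotypes did not overlap for any of the 3 receptors, every pairing of libraries would put TCKO higher.

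Compared per length of transcript, the order of the receptors changed. In WT, Flt4 had the highest level (0.882 ± 0.0404 RPKM), followed by Flt1 (0.223 ± 0.104) and Kdr (0.0863 ± 0.0764), whose ranges overlapped. In TCKO the order was Kdr (5.92 ± 3.88), Flt4 (2.42 ± 0.325) and Flt1 (0.899 ± 0.0924), with no overlap between neighbours. The summed receptor level was 1.19 ± 0.210 RPKM in WT and 9.24 ± 4.19 in TCKO. Kdr made up 3.60%, 4.30% and 12.2% of that sum in the WT libraries and 56.0%, 52.0% and 73.9% in the TCKO libraries. Flt4 made up 75.2% ± 9.79 in WT and 28.7% ± 8.78 in TCKO, although its own level was higher in TCKO.

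**Figure D1:**
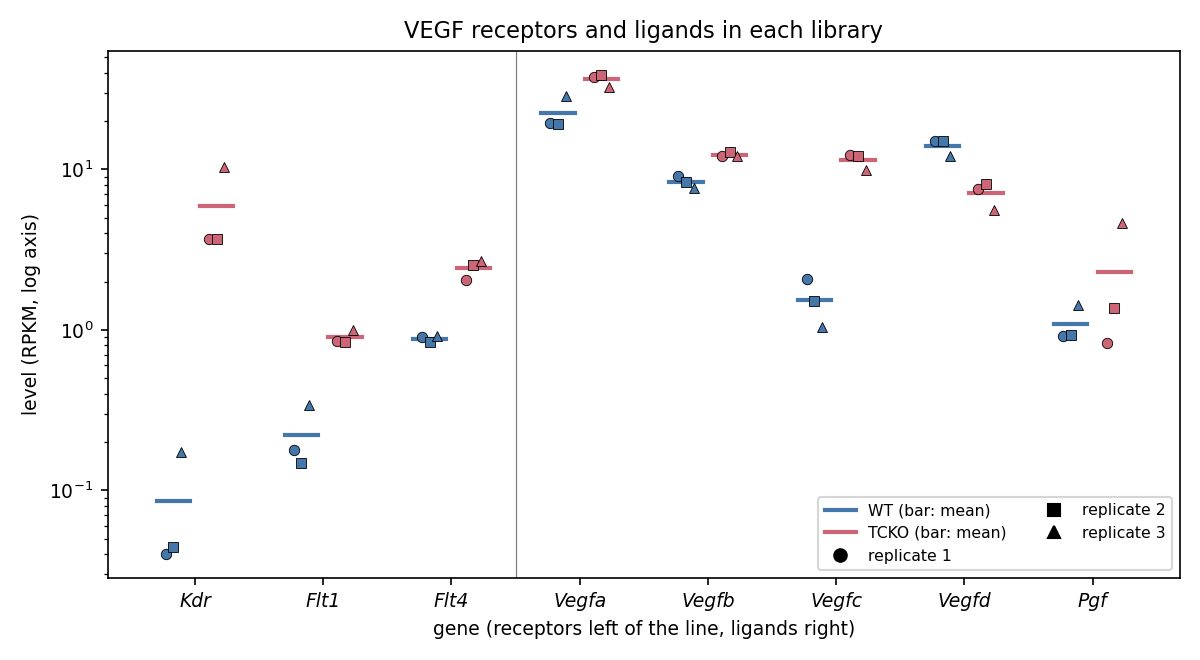
Level of each VEGF receptor (left of the vertical line) and ligand (right) in RPKM on a log axis, with 1 point per library (circle, square and triangle for replicates 1, 2 and 3) and a bar at the mean of each genotype (WT blue, TCKO red). Kdr goes from 0.0402 to 0.175 RPKM in WT to 3.66 to 10.4 in TCKO, Vegfd alone is lower in TCKO, and only Pgf overlaps between genotypes.

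Vegfc (ENSMUSG00000031520, chromosome 8, 54077606 to 54187096, plus strand) had the largest difference of the ligands. The WT libraries held 42, 37 and 21 counts and the TCKO libraries 263, 237 and 216. The genotypes were far apart, and replicate 3 was the lowest of each genotype, the reverse of Kdr. The means were 3.77 ± 1.27 and 27.9 ± 3.19 CPM (SD, n = 3), and the log2 fold change was 2.88 ± 0.22 (SE). Within replicate numbers the ratio was 5.90 (95% exact interval 4.25 to 8.38), 7.98 (5.63 to 11.6) and 9.52 (6.07 to 15.7).

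Vegfd (ENSMUSG00000031380, chromosome X, 164373378 to 164402650, plus strand), the other ligand of Flt4, differed in the opposite direction. The WT libraries held 299, 364 and 239 counts and the TCKO libraries 160, 158 and 120, with no overlap. Its means were 33.8 ± 4.21 and 17.1 ± 3.24 CPM. The log2 fold change was -0.99 ± 0.16, with within-number ratios of 0.505, 0.541 and 0.465. Vegfd is X-linked, and the library with Xist counts, TCKO replicate 3, had the lowest level. Without that library the log2 fold change was -0.83. Per length, Vegfd lay above Vegfc in every WT library (12.0 to 15.1 against 1.04 to 2.08 RPKM) and below it in every TCKO library (5.59 to 8.16 against 9.89 to 12.3 RPKM).

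Vegfa (ENSMUSG00000023951, chromosome 17, 46016993 to 46032369, minus strand) was the most abundant member in both genotypes. It held 690, 821 and 1011 reads in the WT libraries and 1404, 1340 and 1247 in the TCKO libraries. The genotypes did not overlap, but replicate 3 was the highest of WT and the lowest of TCKO. The means were 96.0 ± 23.0 and 156 ± 14.0 CPM, and the log2 fold change was 0.70 ± 0.16. The within-number ratio was 1.92 (1.75 to 2.10) and 2.03 (1.86 to 2.22) in replicates 1 and 2 and 1.14 (1.05 to 1.24) in replicate 3, whose interval lies apart from the others. Vegfb (ENSMUSG00000024962, chromosome 19, 6982473 to 6987651, minus strand), a ligand of Flt1, held 121, 134 and 101 reads in the WT libraries and 170, 165 and 174 in the TCKO libraries. Its means were 13.4 ± 1.20 and 19.8 ± 0.608 CPM. The log2 fold change was 0.56 ± 0.12, and the genotypes did not overlap.

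Pgf (ENSMUSG00000004791, chromosome 12, 85166635 to 85177790, minus strand), which encodes placental growth factor, was the only member whose genotypes overlapped. The WT libraries held 22, 27 and 34 reads and the TCKO libraries 21, 32 and 120. The excess lay in TCKO replicate 3: the log2 fold change was 1.08 ± 0.61 with that library and 0.02 without it, and the within-number ratios were 0.900, 1.48 and 3.27.

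Of the 8 members, 4 (Kdr, Flt1, Flt4 and Vegfc) met the rule for a called rise, an adjusted p under 0.05 with a fold over 2, which 3.16% of all tested genes met, and 0 met the rule for a called fall, met by 3.19%. A further 2 (Vegfa and Vegfb) were higher with an adjusted p under 0.05 and a smaller fold, and 1 (Vegfd) was lower in the same way. Over all tested genes, 9.07% were higher and 8.63% lower at that threshold. Every TCKO library lay above every WT library for 6 members and below for 1, against 19.4% and 18.9% of tested genes. Because the family was chosen with these differences known, the counts and shares stand side by side only as a description. The same holds for the alternative fits that follow, which are no independent test of the members. With replicates 1 and 2 added up, Kdr, Flt4 and Vegfc met the rule for a called rise and Flt1, Vegfa, Vegfb and Vegfd were no longer under 0.05. Vegfa was also not under 0.05 without WT replicate 1 or 2 or TCKO replicate 1 or 2, and Vegfb without WT replicate 2 or TCKO replicate 1 or 2. With the block on the added-up samples, Vegfa and Vegfb were not under 0.05 and Flt1 and Vegfd were. Vegfd met the rule for a called fall in that fit and without WT replicate 3, TCKO replicate 1 or TCKO replicate 2.

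**Figure D2:**
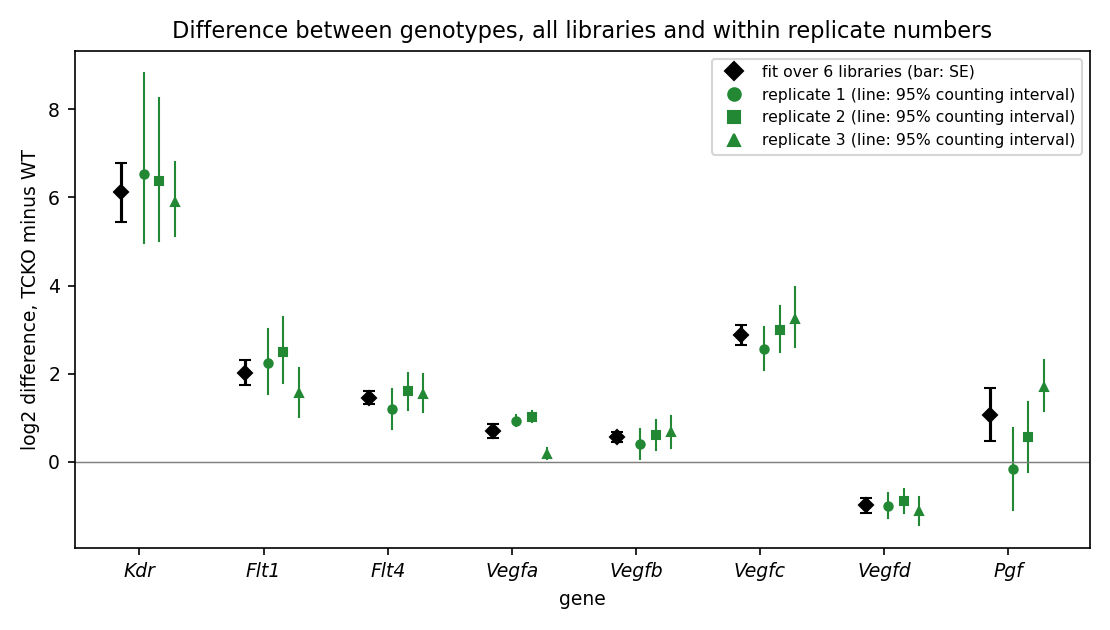
Log2 difference between TCKO and WT for each member. Black diamonds give the fit over 6 libraries with its SE, and green symbols give the ratio within each replicate number with its 95% counting interval. The replicate 3 ratio of Vegfa (1.14) lies below the other replicates, and that of Pgf (3.27) lies above.

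The ligand pool was larger and differently composed in TCKO. The summed ligand level was 47.4 ± 2.96 RPKM in WT and 69.4 ± 4.19 in TCKO (SD, n = 3). Vegfa held the largest share in both, 46.9% ± 8.23 and 52.2% ± 1.69. Vegfd came next in WT, with 29.8% ± 5.33, and held 10.2% ± 1.38 in TCKO. Vegfc went from 3.28% ± 1.20 to 16.4% ± 1.12, while the share of Vegfb was 17.7% ± 2.37 and 17.8% ± 0.808. Across the whole family the WT order by RPKM was Vegfa, Vegfd, Vegfb, Vegfc, Pgf, Flt4, Flt1 and Kdr, where Vegfc and Pgf, and Flt1 and Kdr, overlapped. The TCKO order was Vegfa, Vegfb, Vegfc, Vegfd, Kdr, Flt4, Pgf and Flt1, where Vegfb overlapped Vegfc, Kdr with its wide range overlapped Vegfc and Vegfd, and Pgf overlapped Kdr, Flt4 and Flt1.

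**Figure D3:**
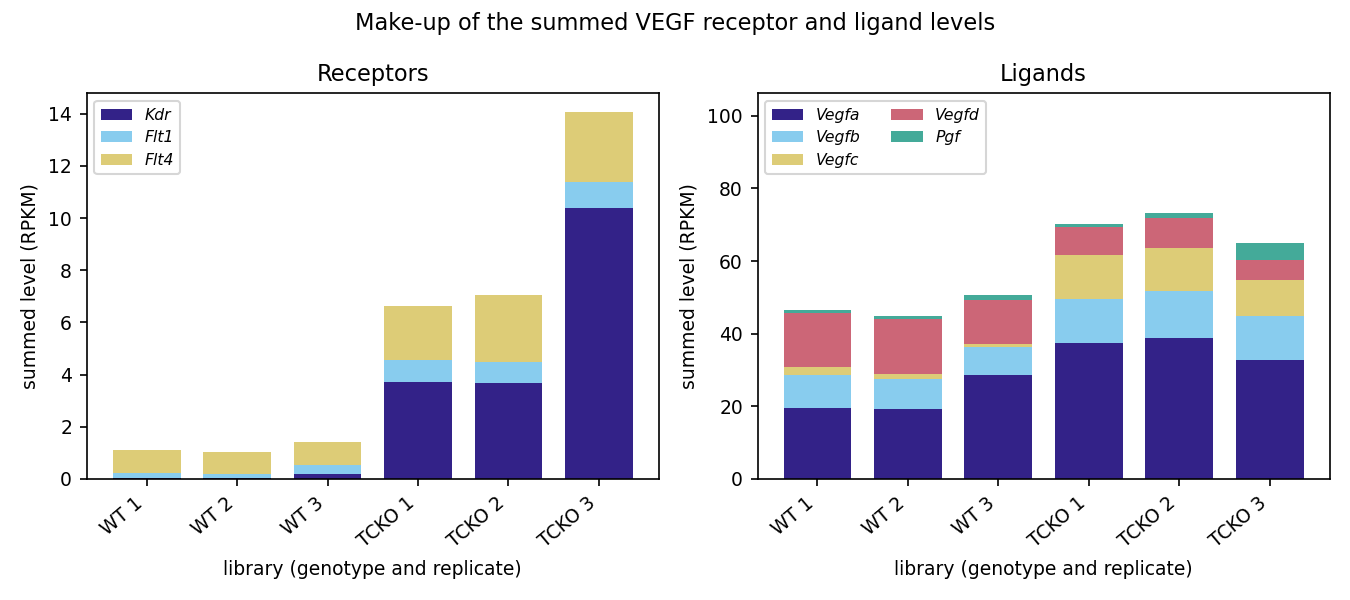
Summed level in RPKM of the 3 receptors (left) and the 5 ligands (right) in each library, stacked by gene. Kdr makes up 52.0% to 73.9% of the receptor sum in TCKO, and Vegfc takes a larger and Vegfd a smaller part of the ligand sum than in WT.

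Across the 6 libraries, the log2 CPM of Kdr ran closest among the members to that of Flt1 (Pearson r = 0.983), Flt4 (0.979) and, inversely, Vegfd (-0.988), and least close to Pgf (0.590). Vegfb and Vegfc ran together (0.993). Outside the family, among 10949 tested genes with a mean of at least 50 counts, the genes most like Kdr were Loxl3, a lysyl oxidase of collagen cross-linking, Sh3glb1, a membrane-bending endophilin, Cks1b, a subunit of cyclin-dependent kinases, Zfp36l1, an RNA-binding protein of mRNA decay, and Prdx6, a peroxiredoxin. Their r lay between 0.998 and 0.999. Their own differences were far smaller, with log2 fold changes of 0.79, 0.27, 0.83, 0.82 and 0.76 in that order. All these libraries fall into the same pair of genotypes and share replicate 3 as the library that stands apart, and these r values carry no test.

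Kdr and Flt1 are markers of vascular endothelium, and most other markers of that cell type had few counts or none. Of 18 endothelial genes, 4 had enough counts to be tested, and Gpihbp1 and Icam2 had 0 counts in every library. Pecam1 had 1 to 7 counts per library, Cdh5 (VE-cadherin) 2 to 7 and Tie1 0 to 2, in libraries where TCKO Kdr reached 837. The summed level of the 18 genes ran from 10.1 to 13.3 CPM over WT libraries and from 13.6 to 17.7 over TCKO libraries, while Kdr alone was 33.1 to 93.9 CPM in TCKO. Ramp2, a receptor activity-modifying protein and the most abundant gene of the list, had a mean of 4.83 ± 0.325 CPM for WT and 4.56 ± 0.791 for TCKO (adjusted p = 0.814). Esam, an adhesion molecule, was the 1 tested endothelial gene that passed as higher (log2 fold change 2.47 ± 0.58, adjusted p = 0.0238). It had 7, 2 and 8 reads in the WT libraries and 23, 19 and 53 in the TCKO libraries, again highest in replicate 3. Ecscr (1.02, adjusted p = 0.206) and Egfl7 (0.60, adjusted p = 0.304) also had positive log2 fold changes but did not pass edgeR's quasi-likelihood test, and that of Ramp2 was -0.08. The median of the 4 tested genes was 0.81, against 0.000204 over all tested genes. The call of Esam was lost without WT replicate 1 or 2 (adjusted p up to 0.0803) and with replicates 1 and 2 added up (0.110). Of 4 lymphatic genes, Lyve1, Mmrn1 and Ccl21a had 0 counts throughout, and the sum, held by Prox1, was 1.45 to 2.59 CPM in WT and 3.36 to 3.70 in TCKO.

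**Figure D4:**
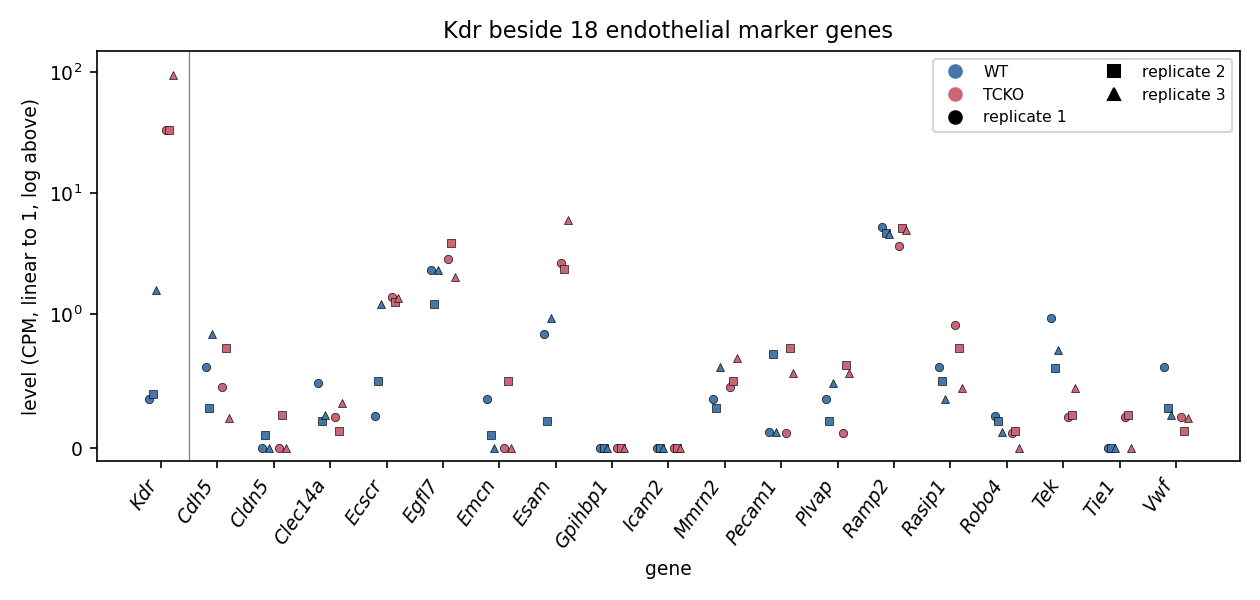
Level in CPM (linear up to 1, log above) of Kdr and of 18 endothelial marker genes in each library, with symbols as replicate numbers and colours as genotypes (WT blue, TCKO red). In TCKO Kdr lies at 33.1 to 93.9 CPM, above every endothelial marker, and only Esam among the markers passed the test as higher.

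The lists for other cells moved in several directions, and their part in the family's differences was not tested. All cell type lists were chosen with earlier results of these data known. In bulk RNA, fewer cells of a type and less RNA per cell cannot be told apart. Over all tested genes 3.16% were called higher and 3.19% called lower without the replicate block. At an adjusted p under 0.05 alone, 9.07% were higher and 8.63% lower. The osteoblast list (14 genes, 11 tested) summed to 40897 to 43712 CPM in WT and 22343 to 37104 in TCKO, with Col1a1, the collagen I chain, as its highest gene; Alpl was called lower (and Sp7 too with the replicate block) and Spp1 called higher, and Bglap (osteocalcin), a late marker, had at most 2 counts. All 7 chondrocyte genes fell, led in level by Col2a1, with sums of 6302 to 8291 and 694 to 986 CPM. Of 12 haematopoietic and macrophage genes, 3 (Csf1r, Adgre1 and Itgam) fell, and with the replicate block 6 were called lower and all 12 had an adjusted p under 0.05, Lyz2 among them. Over the whole table the block called 524 genes lower, against 441 without it, and its share of all tested genes under 0.05 is not given here. The sum of the 12 genes, mostly Lyz2, was 428 to 830 CPM in WT and 172 to 617 in TCKO. Among 8 pericyte and smooth muscle genes, Cspg4 was called lower, Higd1b was at 0 and the sum was 232 to 328 against 135 to 182 CPM. In the Schwann cell list the myelin gene Mbp, also its most abundant, was called higher, and the sum was 14.2 to 14.9 against 27.6 to 42.3 CPM. Skeletal muscle genes, with Actc1 highest and Myf5 at 0, and epithelial and mesothelial genes, with Msln highest and Krt14 and Upk3b at 0, summed to at most 7.88 and 2.42 CPM. Of the called markers of these lists, Acan, Col11a2, Col2a1 and Mbp were still called with replicates 1 and 2 added up. The calls of Cspg4, Itgam and Matn1 were each lost on leaving out any 1 of 5 libraries (adjusted p up to 0.149, 0.113 and 0.140), and that of Sox9 without WT replicate 1, where its log2 fold change was -0.94.

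Of 130 other genes listed for the VEGF pathway, 129 were in the table and 111 were tested. The lists were chosen with earlier results of these data known, so their counts, shares and p-values are a description and no independent support. By edgeR's quasi-likelihood test with Benjamini-Hochberg adjustment, 7 (6.31%) were called higher and 5 (4.50%) called lower, against 3.16% and 3.19% of all tested genes. At an adjusted p under 0.05 without the fold rule 18 (16.2%) were higher and 14 (12.6%) lower, against 9.07% and 8.63%. The median log2 fold change was 0.08, against 0.000204 over all tested genes. With replicates 1 and 2 added up, 2 were higher and 1 lower at that threshold: F3, Nrp1 and Erg. Leaving out WT replicate 1 or 2 or TCKO replicate 1 left 10 higher and 4 to 6 lower, and leaving out TCKO replicate 2 left 5 lower.

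Among the co-receptors 2 genes were called higher. Nrp1, neuropilin 1, which binds VEGF-A and partners Kdr, held 560, 716 and 585 reads in the WT libraries and 1496, 1320 and 1316 in the TCKO libraries. The genotypes were well apart, with means of 70.1 ± 1.97 and 161 ± 11.9 CPM (SD, n = 3, log2 fold change 1.20 ± 0.08 SE, adjusted p = 0.000127). Mcam (CD146), a partner of Kdr at the cell surface, rose from 27.8 ± 2.00 to 62.1 ± 12.8 CPM (adjusted p = 0.00259, or 0.0626 with replicates 1 and 2 added up). Of the 11 tested genes of this list, 4 were higher and 2 lower at an adjusted p under 0.05, against 9.07% and 8.63% of all tested genes. With the replicate block, 5 were higher and 3 lower. In that fit Ptprb was called lower (log2 fold change -1.22, adjusted p = 0.0383, or 0.0854 without the block). Among 38 tested proteins that relay receptor signals, such as phospholipase C gamma, Akt and the MAP kinases, 4 were higher and 4 lower. Over all tested genes 9.07% were higher and 8.63% lower at an adjusted p under 0.05. Only Hspb1, the small heat shock protein HSP27 that p38 signalling phosphorylates, was called (log2 fold change 1.08 ± 0.19, adjusted p = 0.00754, or 0.0972 with replicates 1 and 2 added up). Without WT replicate 1, WT replicate 2 or TCKO replicate 3, Hspb1 had a log2 fold change of 0.93 to 0.998, just under the fold rule. With the replicate number as a block, 7 of the 38 were higher and 4 lower. The block called more genes over the whole table, and the share of all tested genes under 0.05 in that fit is not given for either list.

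Genes that VEGF signalling is known to induce included the largest rise of the lists. F3, tissue factor, which starts coagulation, held 482, 506 and 568 reads in the WT libraries and 2755, 2640 and 4089 in the TCKO libraries. Its mean went from 59.2 ± 9.21 to 367 ± 79.6 CPM (log2 fold change 2.63 ± 0.18, adjusted p = 0.000131). Of the 13 tested genes of this list, Egr3, an immediate early transcription factor, also rose (1.85 ± 0.27, adjusted p = 0.00357, or 0.0605 with replicates 1 and 2 added up), as did Dusp5, a phosphatase of ERK (1.15 ± 0.31, adjusted p = 0.0375). The homeobox gene Hlx fell (-1.11 ± 0.24, adjusted p = 0.0172). The call of Dusp5 was lost on leaving out any library but WT replicate 3 (adjusted p up to 0.135, without WT replicate 1), and that of Hlx on leaving out WT replicate 2, TCKO replicate 1 or TCKO replicate 2 (up to 0.0736) or, by the fold rule, WT replicate 3 (log2 fold change -0.97). With replicates 1 and 2 added up they had an adjusted p of 0.210 and 0.108. With the replicate block, 5 genes of the list were higher under 0.05, against 3 without it. Over all tested genes 9.07% were higher without the block, and the share with it is not given.

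Oxygen sensing and hypoxia genes, which lie upstream of Vegfa transcription and beside it, passed the fold rule in 1 case. Among 9 tested genes of oxygen sensing, Epas1 (HIF-2 alpha) fell from 16.9 ± 3.30 to 6.55 ± 2.00 CPM (log2 fold change -1.36 ± 0.24, adjusted p = 0.00786, or 0.0951 with replicates 1 and 2 added up). Of these 9 genes, 1 was higher and 1 lower at an adjusted p under 0.05, against 9.07% and 8.63% of all tested genes. Of 15 tested hypoxia response genes, 0 were called, where 3.16% of all tested genes were called higher and 3.19% called lower. At an adjusted p under 0.05, 4 of the 15 were higher and 0 lower, beside the same 9.07% and 8.63%. The most abundant were Ldha, lactate dehydrogenase A (0.12 ± 0.11, adjusted p = 0.507), and Adm, the vasodilator adrenomedullin (0.79 ± 0.14, adjusted p = 0.00738, or 0.0877 with replicates 1 and 2 added up).

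Transcription factors of endothelium did not all move one way. Of 12 tested, 1 was higher and 4 lower at an adjusted p under 0.05 (9.07% and 8.63% of all tested genes). Erg, an ETS factor of endothelium and cartilage, was called lower (log2 fold change -2.65 ± 0.42, adjusted p = 0.00505). It held 23, 44 and 39 reads in the WT libraries and 6, 2 and 8 in the TCKO libraries. Foxc2, a forkhead factor of mesenchyme and lymphatic vessels, also fell (-1.16 ± 0.31, adjusted p = 0.0380), and Sox7, which acts in early vessels, rose (1.21 ± 0.33, adjusted p = 0.0428). Leaving out 1 library ended the call of Foxc2 in all cases but TCKO replicate 3 (adjusted p up to 0.125, without TCKO replicate 1) and that of Sox7 in all cases but TCKO replicate 2 (up to 0.139, without WT replicate 1). With replicates 1 and 2 added up they had an adjusted p of 0.234 and 0.163. With the replicate block Gata2 was also called higher (log2 fold change 1.77, adjusted p = 0.00252, or 0.123 without the block).

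**Figure D5:**
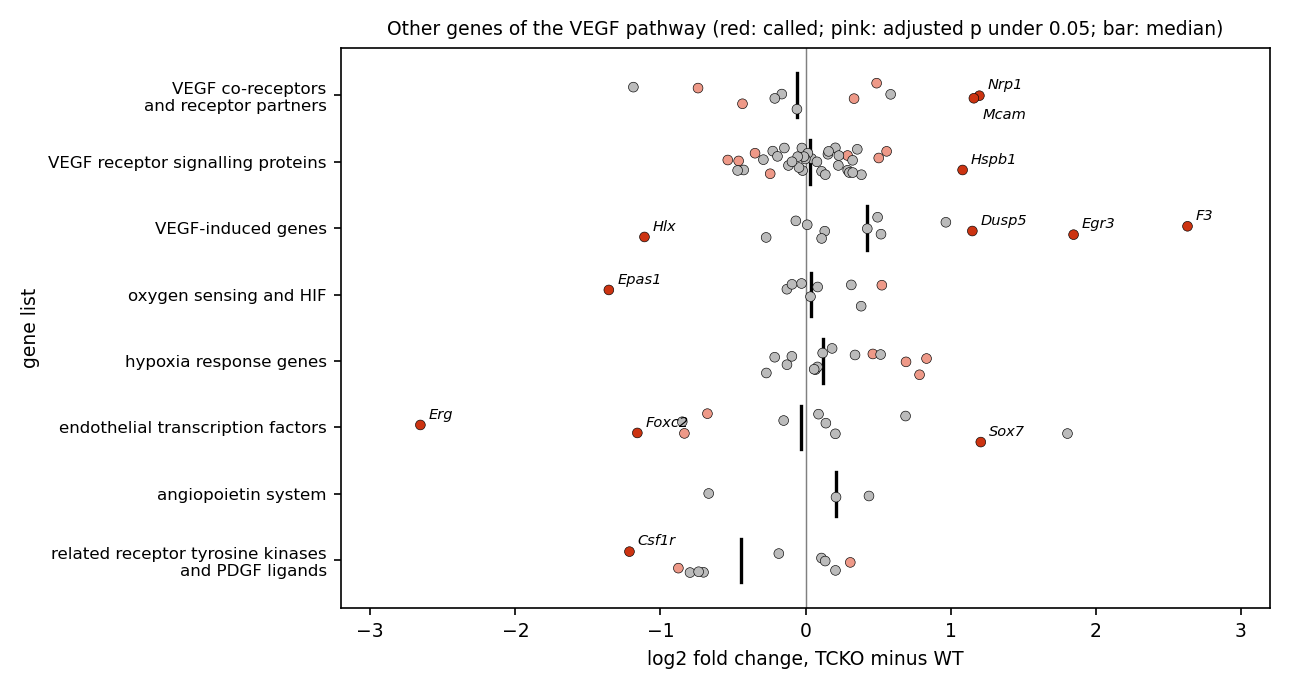
Log2 fold change (TCKO minus WT) of the 111 tested genes of 8 VEGF pathway lists, 1 point per gene, spread vertically for legibility. Red points were called and are named, pink points passed an adjusted p of 0.05 with a smaller fold, grey points did not pass, and each black bar is the median of its list; 7 genes were called higher and 5 lower.

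Genes lying beside the members were compared to see whether the differences extended along the chromosome. Within 500 kb of the 8 genes, 98 genes were tested, of which 1 was called higher and 3 lower, 4.08% together. Within 200 kb, 46 were tested and 1 (2.17%) was called. Over all tested genes 3.16% were called higher and 3.19% called lower. Beside Kdr the nearest tested gene was Gm6051, 82.0 kb away at higher coordinates (log2 fold change 0.27 ± 0.39, adjusted p = 0.678), and no tested gene lay within 500 kb on the other side. Pan3, 13.1 kb from Flt1, did not pass the test (0.06 ± 0.16, adjusted p = 0.827). Spcs3, a signal peptidase subunit 333 kb from Vegfc, was higher (0.50 ± 0.13, adjusted p = 0.0375), a result that was lost in 6 of the alternatives, with an adjusted p of up to 0.340. The other nearest neighbours, Pomp for Flt1, Mgat1 and Cnot6 for Flt4, Mrpl14 and Mrps18a for Vegfa, Fkbp2 and Dnajc4 for Vegfb, Neil3 for Vegfc, Pir and Piga for Vegfd, and Rps6kl1 and Eif2b2 for Pgf, did not pass the test. Dnajc4 lies 0.260 kb from Vegfb and Pir 0.367 kb from Vegfd.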

How the data were processed

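RNA-seq libraries of WT and TCKO osteoblasts (3 each, grouped and numbered by their titles) were analysed. The deposited values are raw counts per gene, made by the authors with STAR 2.7.0e and featureCounts 2.0.0 on GRCm38 with Ensembl 99 gene models, and the deposited length is the summed exon length. The kit was directional, but whether counting used strand is not stated, so overlapping genes are less certain: Csf1r overlaps Hmgxb3 on the other strand, and no annotated gene overlaps a member. Symbols were matched for 55144 identifiers (99.4%), 0 value columns were unassigned and 0 rows lacked a gene.

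Genes passing filterByExpr (13826) were TMM-scaled and fitted with the edgeR 4.0.16 quasi-likelihood test in R 4.3.3, with p-values adjusted over all tested genes by the Benjamini-Hochberg method. A gene was called at an adjusted p under 0.05 and a fold over 2. The procedure was tested on simulated data. SEs were derived from the test statistic. Log2 CPM for correlations used a prior count of 2. Intervals of ratios are exact conditional binomial intervals and cover counting error only. RPKM used the deposited lengths.

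Same-numbered WT and TCKO libraries deviated together from their group means (r = 0.204, 0.214 and 0.347 across genes), so the replicate numbers in the titles were taken as pairs in the alternative fit, although replicates 1 and 2 were as close across numbers (0.225 and 0.188).

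The members and gene lists were chosen with earlier results of these data known. Genes named were the members, the Tet genes, and the called genes of each pathway list or its 2 most abundant where none was called. Also named were nearest tested neighbours, the 5 genes most like Kdr, and the most abundant gene and those at 0 in each cell type list. Other named markers and Gata2, Ptprb, Xist, Ddx3y and Hmgxb3 were chosen after their values were seen. Alternatives were other scaling factors, filters, DESeq2 1.42.0, a robust fit, a replicate block, each library left out, and replicates 1 and 2 summed. Promoters are from RefSeq (GRCm38.p6).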

Additional observations from a re-analysis of the deposited data

How the results depend on the processing

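No direction of a member changed in any of the alternatives. Leaving out each library in turn gave log2 fold changes of 5.44 to 7.08 for Kdr, 1.78 to 2.46 for Flt1, 1.38 to 1.56 for Flt4, 0.59 to 0.91 for Vegfa, 0.50 to 0.63 for Vegfb, 2.68 to 3.14 for Vegfc, -1.09 to -0.83 for Vegfd and 0.016 to 1.47 for Pgf. The same step gave 295 to 538 genes called higher (437 with all libraries) and 300 to 511 called lower (441), and 10 to 26 VEGF pathway genes higher and 4 to 15 lower at an adjusted p under 0.05 (18 and 14). An arm left with 2 libraries has a less certain spread. With replicates 1 and 2 summed, which leaves 2 samples against 2, 178 genes were called higher and 146 lower, and 2 pathway genes were higher and 1 lower. The summed fit with the replicate block gave 9 pathway genes lower. The replicate block on all 6 libraries gave 487 genes called higher and 524 lower. It moved more genes of several lists under 0.05, as given beside most of those lists. The share of all tested genes under 0.05 in that fit is not given, so those list counts have no share beside them. The block changed the call of no member. Of the neighbouring genes, 4 were called within 500 kb and 1 within 200 kb, a window that holds fewer genes. The shares of the receptor and ligand sums are the same in TPM as in RPKM. At this depth, a WT level of Kdr, 3 to 13 counts per library, is known only within wide counting error.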

Other observations

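Relatives of the VEGF receptors and a neighbouring vascular ligand family were also measured. Related receptor tyrosine kinases and platelet-derived growth factor ligands had 10 tested genes. In edgeR's quasi-likelihood test with Benjamini-Hochberg adjustment, 1 was higher and 2 lower at an adjusted p under 0.05 (9.07% and 8.63% of all tested genes). With the replicate block, 1 was higher and 3 lower, and the share of all tested genes in that fit is not given. Csf1r, the macrophage colony-stimulating factor receptor, fell from 28.9 ± 9.32 to 12.5 ± 3.47 CPM (SD, n = 3 libraries, log2 fold change -1.21 ± 0.29 SE, adjusted p = 0.0253). The WT libraries held 303, 314 and 153 reads and the TCKO libraries 132, 111 and 76. The call of Csf1r was lost on leaving out WT replicate 1 or 2 or TCKO replicate 1 or 2 (adjusted p up to 0.0955), without TCKO replicate 3 by the fold rule (log2 fold change -0.99) and with replicates 1 and 2 added up (0.187). Csf1r overlaps Hmgxb3, which has more counts.

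In the angiopoietin system 3 genes were tested and 0 passed in either direction. Angptl2, a secreted angiopoietin-like protein and the most abundant of them, held 1869, 2406 and 3288 reads in the WT libraries and 1422, 1321 and 1942 in the TCKO libraries (log2 fold change -0.67 ± 0.22, adjusted p = 0.0802). With the replicate block Angptl2 passed the threshold (-0.63, adjusted p = 0.00436). Angptl4, an inhibitor of lipoprotein lipase, held 79, 82 and 122 reads in the WT libraries and 156, 152 and 65 in the TCKO libraries, and replicate 3 was the highest of WT and the lowest of TCKO (0.44 ± 0.37, adjusted p = 0.460).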
